A study of Mus musculus with 26 samples.

Results

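The peaks and genes of mouse chromosome 6 were taken from the processed data of a study of ATRX in mouse embryonic fibroblasts (MEFs). The members are all peaks placed on chromosome 6 in the 16 deposited CUT&RUN peak lists, which are 11626 of 272147 peaks, and all genes of the RNA-Seq tables that GENCODE release M21 places on chromosome 6, which are 3128 of 53801 genes. Of these genes, 1540 had counts above 0 in at least 1 library and 632 had a mean of at least 1 CPM, a gene's counts scaled to the library total, over the 6 RNA-Seq libraries. Chromosome 6 was chosen because its share of the peaks and its expression differ between the genotypes in these same lists and libraries, so its shares, ratios and calls are given below as a description.

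The study asked what the RNA binding region (RBR) of ATRX contributes to the placement of ATRX and of polycomb repressive complex 2 (PRC2) on chromatin. WT cells were female MEFs of the parental line, with no allele or agent named. ATRXΔRBR cells came from the same line and carry a deletion of the RBR in the endogenous Atrx gene, made with CRISPR/Cas9 and a plasmid that gives puromycin resistance. They were recovered as 1 clone, so the deletion and other differences of that clone from the parental line cannot be told apart. ATRX KD cells express an shRNA against ATRX and were selected with puromycin. CUT&RUN against ATRX covered the WT and ATRXΔRBR genotypes, while EZH2, H3K27me3 and RNA-Seq covered all 3, with 2 replicates in each group. The study's methods call the replicates biological, and the labels do not say whether they came from separate cultures, so p-values measure the spread between these libraries. The list of raw files names 1 sequencing run for WT and ATRXΔRBR libraries and no run for ATRX KD libraries, so a batch and the knockdown cannot be told apart.

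ATRX is a chromatin remodeler that loads the histone variant H3.3 at repeats and heterochromatin together with DAXX, and that takes part in the recruitment of PRC2. EZH2, the enzyme within PRC2, trimethylates lysine 27 of histone H3 (H3K27me3), a modification that marks silent developmental genes and often lies over CpG-rich promoters. Mouse chromosome 6 carries the HoxA cluster of body patterning genes, several imprinted genes, and large families of immunoglobulin, taste, vomeronasal and natural killer cell receptor genes that are mostly silent in fibroblasts.

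The RNA-Seq libraries held between 9051712 and 21723597 estimated counts, and chromosome 6 took between 4.38% and 4.56% of them. Atrx counts were 8278 and 5195 in WT, against 3531 and 4291 in ATRXΔRBR, with 3768 and 11891 in ATRX KD, so the knockdown did not show in the counts, and a shortened transcript of the ATRXΔRBR allele would still be counted. Of 10 fibroblast markers, 7 were abundant in all libraries, Thy1 was at 0 in all 6 and Postn had at most 17 counts. Col3a1 had 937 and 733 counts in WT, compared with 342 and 472 in ATRXΔRBR, then 4 and 12 in ATRX KD. The summed level of the fibroblast list ranged from 11820 to 20888 CPM, against at most 1.87 CPM for epithelial, 5.41 for endothelial, 5.58 for immune and 0.08 for muscle markers. The summed level of the 2 neural markers was 50.05 and 39.07 CPM in the WT libraries, 21.95 and 22.21 in those of ATRXΔRBR, and 2.23 and 2.76 in those of ATRX KD. Most of it in WT and ATRXΔRBR came from Sox2. The part of these differences in the chromosome 6 results was not tested. In such bulk samples, fewer cells of a type and less RNA per cell cannot be told apart.

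To show what lies under the ATRX peaks, the sequences of 6 of them are given (GRCm38, plus strand, the 200 bases at the middle of the peak, CG dinucleotides in capitals). They are the 3 chromosome 6 peaks of highest fold enrichment among those found in both WT lists and neither ATRXΔRBR list, the 2 highest among those in all 4 lists, and the highest found in both ATRXΔRBR lists and neither WT list.
Peak in an intron of Hk2, in both WT lists only, chr6:82756202-82756401: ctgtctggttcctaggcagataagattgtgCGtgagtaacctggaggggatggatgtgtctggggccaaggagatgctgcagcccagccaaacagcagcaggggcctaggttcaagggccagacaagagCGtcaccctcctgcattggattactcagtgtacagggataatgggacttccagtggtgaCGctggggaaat
Intergenic peak near Necap1, in both WT lists only, chr6:122869906-122870105: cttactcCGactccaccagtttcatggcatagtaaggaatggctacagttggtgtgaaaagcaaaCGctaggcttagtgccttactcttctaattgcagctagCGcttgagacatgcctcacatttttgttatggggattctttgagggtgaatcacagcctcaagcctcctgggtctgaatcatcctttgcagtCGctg
Peak in an intron of Cftr and an exon of Gm15592, in both WT lists only, chr6:18271100-18271299: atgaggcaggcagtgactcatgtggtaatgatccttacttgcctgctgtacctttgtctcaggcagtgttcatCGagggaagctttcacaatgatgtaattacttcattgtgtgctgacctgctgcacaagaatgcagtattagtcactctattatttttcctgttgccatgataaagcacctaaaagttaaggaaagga
Intergenic peak 99 bases from Creb3l2, in all 4 lists, chr6:37442289-37442488: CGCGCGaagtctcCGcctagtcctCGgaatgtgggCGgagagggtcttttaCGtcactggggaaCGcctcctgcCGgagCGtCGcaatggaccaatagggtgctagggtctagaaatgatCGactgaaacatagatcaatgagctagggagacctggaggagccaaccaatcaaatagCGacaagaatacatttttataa
Peak in an intron of 9530026P05Rik, in all 4 lists, chr6:93266937-93267136: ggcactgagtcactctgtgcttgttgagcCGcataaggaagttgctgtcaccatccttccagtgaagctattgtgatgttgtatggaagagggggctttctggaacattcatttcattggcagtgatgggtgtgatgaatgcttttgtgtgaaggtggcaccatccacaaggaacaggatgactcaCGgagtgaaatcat
Intergenic peak 2 bases from Lrig1, in both ATRXΔRBR lists only, chr6:94700259-94700458: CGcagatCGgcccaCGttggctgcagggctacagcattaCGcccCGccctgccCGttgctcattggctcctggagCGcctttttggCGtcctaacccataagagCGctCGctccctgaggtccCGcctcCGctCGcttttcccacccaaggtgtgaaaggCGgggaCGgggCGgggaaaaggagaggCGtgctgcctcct
The Hk2 peak had a fold enrichment over the local background of 6.73 and 4.42 in the WT lists, and the Creb3l2 peak had 7.04 and 4.66 in WT and 4.43 and 3.83 in ATRXΔRBR. The 3 peaks found in WT only held 1 to 4 CG dinucleotides in 200 bases, while the Creb3l2 peak held 13 and the Lrig1 peak 17. Intergenic here means outside every annotated gene, and such a peak can lie within 2 kb of a transcription start. The Lrig1 peak lay beside the transcription start of Lrig1, which is on the minus strand. The other peak found in all 4 lists, in 9530026P05Rik, held 2.

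The composition of the whole sets was measured in the same way. On chromosome 6, 53 ATRX peaks of WT replicate 1 had a counterpart in WT replicate 2 and in neither ATRXΔRBR list, and their median GC content was 47.97%, with 1.25 CG dinucleotides in 100 bases and 5.41% of the bases in annotated repeats. The 23 peaks found in all 4 lists had 47.25%, 1.33 and 10.8%. All 420 chromosome 6 peaks of WT replicate 1 had a median GC content of 48.73%, and the 8487 on the other autosomes 49.33%. The 4 peaks found in both ATRXΔRBR lists and neither WT list had a higher GC content of 56.42% with 5.14 CG dinucleotides in 100 bases, and 75% of them lay within 2 kb of a transcription start site (TSS), against 28.3% of the 53 lost peaks.

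Chromosome 6 held a smaller share of the peaks in ATRXΔRBR than in WT for all 3 targets. The ATRX lists had 420 and 199 chromosome 6 peaks in WT, which were 4.62% and 4.20% of the peaks on the 21 assembled chromosomes. In ATRXΔRBR there were 170 and 103, or 2.72% and 2.16%. The means were 4.41% ± 0.299 (SD, n = 2) and 2.44% ± 0.399 (SD, n = 2), a ratio of 0.553. The 4 ratios of single lists lay between 0.467 and 0.648, and on the other autosomes the ratios of means ran from 0.625 on chromosome 10 to 1.24 on chromosome 19.

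EZH2 peaks on chromosome 6 numbered 1001 and 821 in WT (4.49% and 4.48%) and 816 and 298 in ATRXΔRBR (3.64% and 2.61%). The ratio of means was 0.698, with single ratios of 0.582 to 0.814, and replicate 2 was lower than replicate 1. H3K27me3 peaks numbered 1965 and 2060 in WT (5.46% and 5.31%) and 1407 and 1079 in ATRXΔRBR (3.64% and 3.26%), a ratio of 0.641 with single ratios of 0.597 to 0.686. For each target, chromosome 6 had the lowest ratio of the 19 autosomes, and no ATRXΔRBR list overlapped a WT list in its share.

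In ATRX KD the shares of the whole chromosome were close to those of WT. EZH2 peaks numbered 233 and 321 (4.38% and 4.56%), a ratio to WT of 0.998, and H3K27me3 peaks 411 and 322 (5.70% and 5.11%), a ratio of 1.00. The ATRX KD lists were much shorter in all, with 5316 and 7039 EZH2 peaks on assembled chromosomes against 22301 and 18341 in WT. Within the chromosome, shares shifted in opposite directions. Both comparisons share the 2 WT lists of each target.

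**Figure D1:**
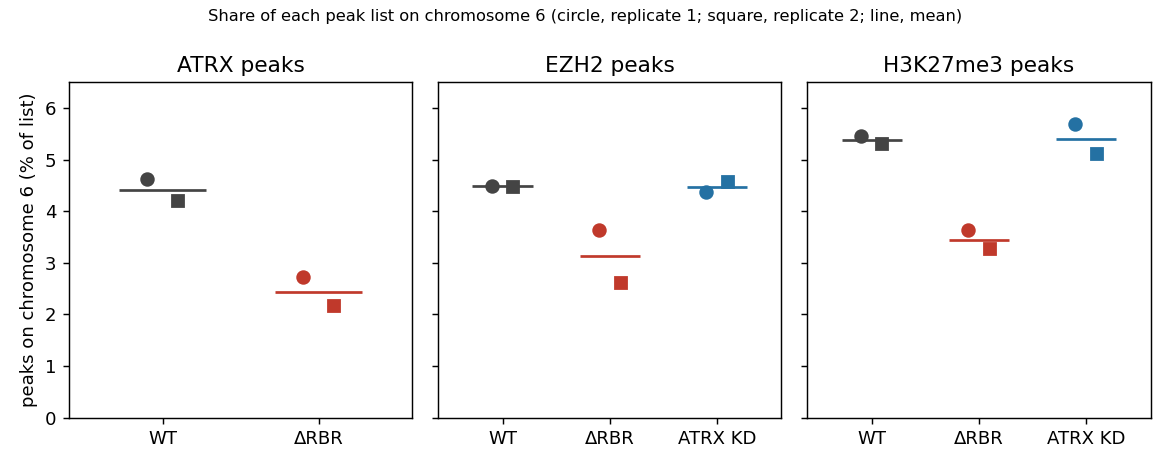
Peaks on chromosome 6 as a percent of all peaks of each list on assembled chromosomes, 1 point per list, with the mean of 2 lists as a line. All ATRXΔRBR lists lie below the WT lists of their target (2.16% to 3.64% against 4.20% to 5.46%), while ATRX KD lists lie near WT.

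Peaks without a counterpart followed the same order. Among chromosome 6 ATRX peaks, 77.6% (WT replicate 1) and 66.3% (WT replicate 2) lacked any overlap of at least 1 base with the ATRXΔRBR list of the same number, against 61.3% and 32.0% on the other autosomes. Between the WT lists themselves the shares were 69.8% and 36.7% on chromosome 6, so the loss in replicate 1 was close to the difference between WT lists. For H3K27me3, 66.7% and 75.2% of the chromosome 6 peaks of WT had no counterpart in ATRXΔRBR, against 44.8% and 53.2% elsewhere and 22.1% and 32.7% between WT lists. For EZH2 the shares were 39.9% and 66.6% on chromosome 6, against 31.7% and 40.0% elsewhere and 32.1% and 17.3% between WT lists, so the replicate 1 value was close to the difference between WT lists. In ATRX KD they were alike on chromosome 6 and elsewhere, for H3K27me3 89.0% and 90.9% against 87.5% and 89.2%, and for EZH2 80.0% and 69.4% against 79.8% and 69.0%.

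Over all H3K27me3 peaks of the ATRXΔRBR lists, those on chromosome 6 were a little lower and narrower than those on the other autosomes. Their median fold enrichment was 3.24 and 3.26, against 3.51 and 3.56 on the other autosomes of the same lists. In WT the chromosome 6 medians were 3.66 and 3.61, against 3.63 and 3.54 elsewhere. The median width of H3K27me3 peaks in ATRXΔRBR was 1538 and 1608 bases on chromosome 6, against 1887 and 1945 elsewhere. In WT it was 1169 and 1332, against 1243 and 1300.

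To place where the shifts begin and end, the chromosome was divided into 30 bins of 5 Mb from its start, the last ending at 149.7 Mb. A bin with a mean of at least 10 WT peaks was called shifted when all 4 ratios of single lists lay on the same side of 1 and the ratio of means was at least 1.2-fold. In ATRXΔRBR, 7 of 13 bins had a lower share of ATRX peaks and 0 a higher share (over all autosomes 12.5% of bins were lower and 10.8% higher). For EZH2 20 of 28 bins were lower and 0 higher (16.2% and 6.02% over all autosomes). For H3K27me3 18 of 28 were lower and 4 higher (37.3% and 31.7%).

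The loss of ATRX peaks was deepest in the first 90 Mb and in replicate 2. The bin at 15 to 20 Mb, which holds Cav1, Cav2, Met and Cftr, had 27 and 17 ATRX peaks in WT and 4 and 1 in ATRXΔRBR. The bin at 35 to 40 Mb had 36 and 20 in WT, and 11 and 2 in ATRXΔRBR. The bin at 50 to 55 Mb with the HoxA cluster had 31 and 7 in WT, and 15 and 0 in ATRXΔRBR, and the share of ATRXΔRBR replicate 1 lay between those of the WT lists. Further along, the bins at 90 to 95 Mb (26 and 11 against 8 and 7 peaks) and 120 to 125 Mb (19 and 8 against 10 and 7) were lower, while others overlapped: the bin at 110 to 115 Mb had 13 and 6 peaks in WT and 11 and 12 in ATRXΔRBR, and that at 145 to 149.7 Mb had 25 and 16 against 6 and 16.

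H3K27me3 was lost over most of the same stretch but with sharp contrasts between neighbours. The bin at 10 to 15 Mb had 23 and 30 peaks in WT and 5 and 1 in ATRXΔRBR, a ratio of shares of 0.113. The bin at 55 to 60 Mb went from 150 and 162 to 38 and 22, a ratio of 0.197, and that at 100 to 105 Mb from 32 and 42 to 8 and 4, a ratio of 0.166. Higher shares were found at 60 to 65, 85 to 95 and 130 to 135 Mb, with 51 and 53 peaks in WT and 79 and 74 in ATRXΔRBR at 90 to 95 Mb. The last bin had too few WT peaks to be called, with 2 and 2 in WT, against 35 and 27 in ATRXΔRBR. The much shorter ATRX KD lists had 5 and 6. The ratio of shares to WT was 16.1 in ATRXΔRBR and 15.3 in ATRX KD. Peaks in this bin covered 75.99 and 56.1 kb in ATRXΔRBR, 6.57 and 7.98 kb in WT, and 4.78 and 5.87 kb in ATRX KD.

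In ATRX KD the EZH2 bins fell into a higher middle and a lower end, and the H3K27me3 bins were more mixed. EZH2 shares were higher in 8 of 28 bins and lower in 9 (25.7% and 26.4% over all autosomes), and H3K27me3 shares were higher in 11 and lower in 11 (34.5% and 32.9%). For EZH2, the higher bins lay between 40 and 100 Mb, and 7 of the 9 lower ones beyond 100 Mb. At 50 to 55 Mb EZH2 had 76 and 63 peaks in WT and 27 and 36 in the shorter ATRX KD lists, a ratio of shares of 1.49. At 115 to 120 Mb it had 52 and 41 in WT and 2 and 8 in ATRX KD, a ratio of 0.331. H3K27me3 at 110 to 115 Mb went from 132 and 136 to 10 and 4, a ratio of 0.282, and at 50 to 55 Mb from 71 and 79 to 36 and 29, a ratio of 2.39.

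**Figure D2:**
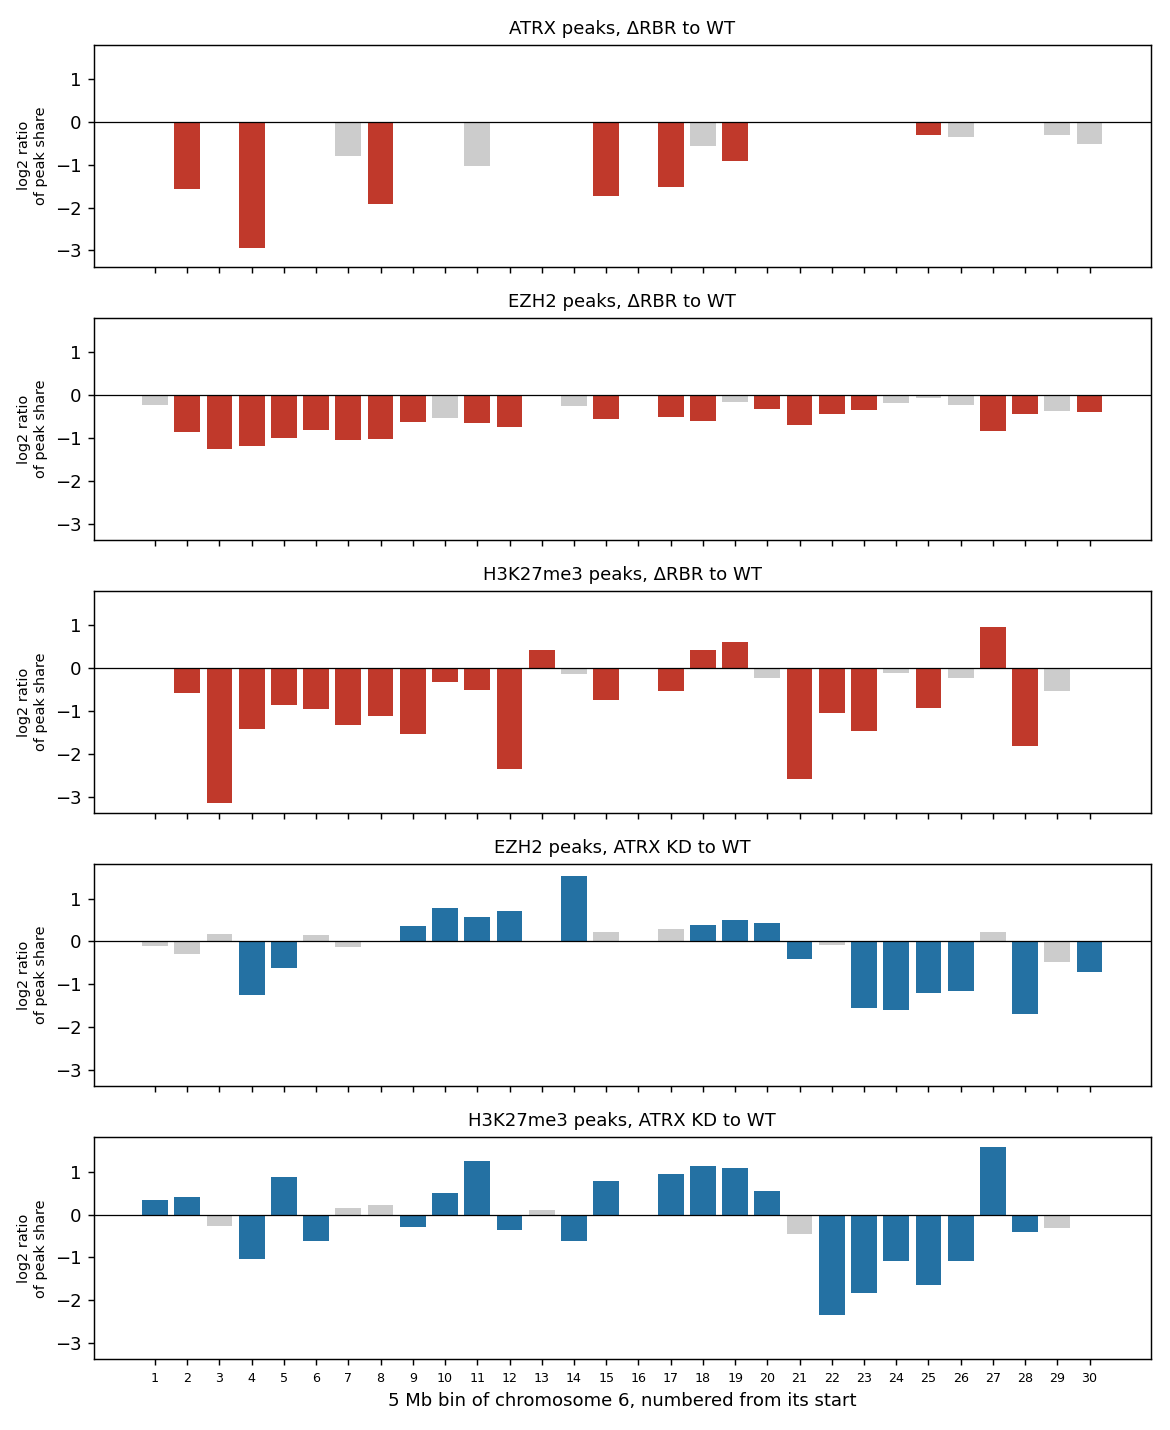
Log2 of the ratio of mean peak shares to WT in the 5 Mb bins of chromosome 6 with at least 10 WT peaks, from the first bin to the last, for ATRX, EZH2 and H3K27me3 in ATRXΔRBR and for EZH2 and H3K27me3 in ATRX KD. Coloured bars are called bins. In ATRXΔRBR nearly all called bars point down (7, 20 and 18 lower against 0, 0 and 4 higher), and in ATRX KD called EZH2 bars point up from bin 9 to bin 20 and down from bin 21 on.

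The expression ratios of chromosome 6 genes also lay in blocks. For each gene with a mean of at least 1 CPM, the log2 ratio was taken for each of the 4 pairs of 1 mutant and 1 WT library, relative to the median of the autosomal genes, and a bin with at least 5 such genes was called shifted when the 4 medians had the same sign and their mean was at least 0.2 in size. Over the whole chromosome the median ratio was -0.08 ± 0.04 (SD over 4 pairs, 632 genes) in ATRXΔRBR and -0.09 ± 0.03 in ATRX KD. In ATRXΔRBR, 6 of 28 bins were higher, at 10 to 15 and 25 to 50 Mb, and 10 were lower, at 95 to 130 and 135 to 149.7 Mb (12.2% and 15.4% over all autosomes). In ATRX KD, 10 were higher and 14 lower (26.5% and 25.2%). All 9 bins from 105 Mb to the end were lower in ATRX KD, and the 4 from 0 to 20 Mb were lower too.

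The bin of largest rise in ATRXΔRBR was at 35 to 40 Mb, with a median of 0.58 ± 0.15 over 30 genes, and the largest falls were at 95 to 100 Mb, with -0.68 ± 0.11 over 10 genes, and at 100 to 105 Mb, with -0.68 ± 0.15 over 5 genes. For ATRX KD, medians of the last 9 bins ran from -0.58 ± 0.12 at 145 to 149.7 Mb to -0.99 ± 0.09 at 140 to 145 Mb. The bin just before them, at 100 to 105 Mb, had 0.44 ± 0.17 over 5 genes.

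**Figure D3:**
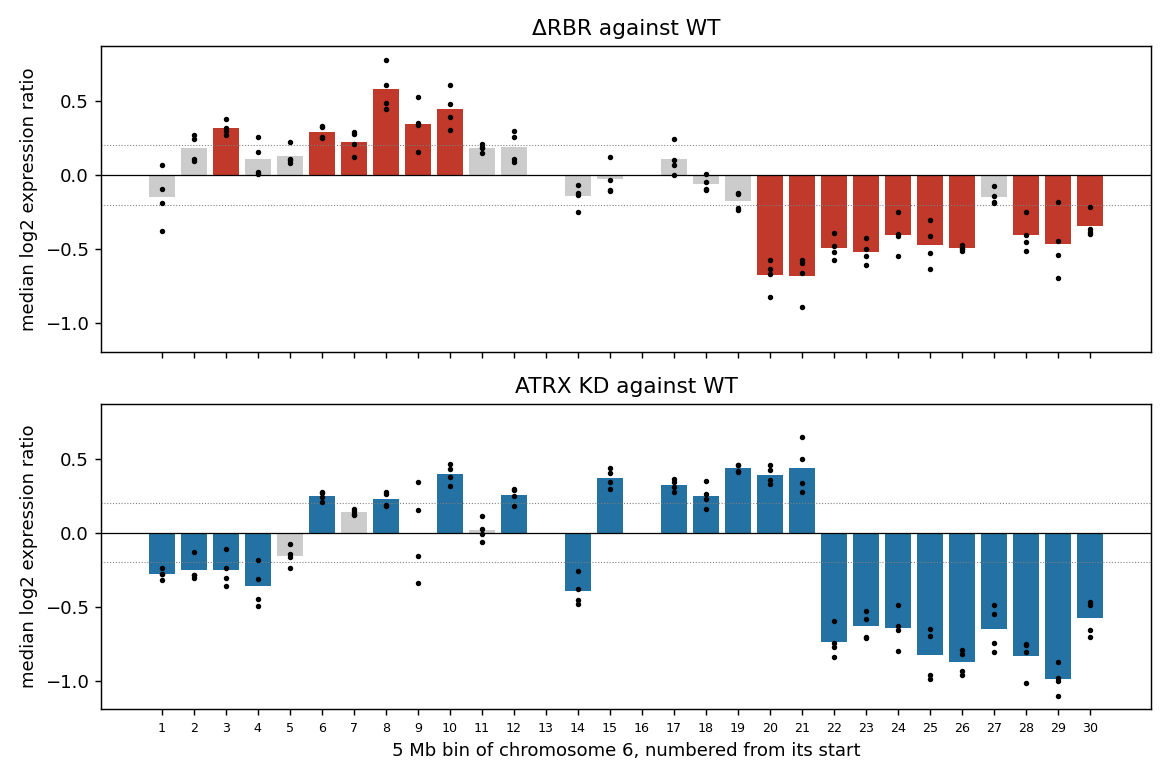
Median log2 expression ratio to WT of chromosome 6 genes in each 5 Mb bin, from the first bin to the last. Bars are the mean of the 4 library pairs, black points the pairs, coloured bars the called bins, and dotted lines the limits of 0.2 in either direction. ATRXΔRBR is above 0 from bin 2 to bin 12 and below 0 from bin 18 on, and ATRX KD drops from 0.44 in bin 21 to -0.74 in bin 22.

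The ends of these blocks were placed between neighbouring genes by dividing the chromosome at 2 points. The points were chosen by least absolute deviation from the median of each part, an analysis that was added after the bins were seen. In ATRXΔRBR the second point lay between Rbsn (gene midpoint at 92200818) and Prickle2 (92538531) in 3 of 4 pairs of libraries and in their mean, and between Xpc (91502596) and Lsm3 (91519276) in the other pair. The first point was not stable, since it moved between Asb4 (5408204) and Abcg2 (58640099) over the pairs. In the mean of the pairs it lay between Vopp1 (57776483) and Rps15-ps2 (58017724). In ATRX KD the second point lay between Pdzrn3 (101263753) and Trnt1 (106775797) in all 4 pairs, and the first between Cped1 (22121160) and Gm42547 (28212906).

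The points were fitted to these same ratios, so the parts are a description. In ATRXΔRBR the median log2 ratio was 0.29 ± 0.04 (SD over 4 pairs, 223 genes) before the first point, -0.04 ± 0.06 (164 genes) between the points and -0.46 ± 0.03 (245 genes) after the second. Only 15.9% of the genes in the last part had a ratio above 0, against 74.4% in the first. The ATRX KD medians were -0.30 ± 0.05 (54 genes), 0.26 ± 0.01 (353 genes) and -0.73 ± 0.03 (225 genes). In the last part of ATRX KD, the median difference between the WT libraries was 0.04 and that between the ATRX KD libraries 0.03.

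Peak shares were counted in the same parts. In ATRX KD the part before 27 Mb had ratios of 0.796 for EZH2 and 1.04 for H3K27me3. The part from 27 to 104.0 Mb, where expression was higher, had a higher share of EZH2 peaks (ratio 1.29, single ratios 1.27 to 1.32) and of H3K27me3 peaks (1.24, 1.15 to 1.32). The part beyond 104.0 Mb, where expression was lower, had ratios of 0.499 (0.454 to 0.544) for EZH2 and 0.551 (0.508 to 0.595) for H3K27me3. In ATRXΔRBR, the part up to 57.9 Mb, where expression was higher, had ratios of 0.355 (single ratios 0.111 to 0.610) for ATRX, 0.582 (0.347 to 0.819) for EZH2 and 0.497 (0.457 to 0.538) for H3K27me3. The ATRX ratio rests on 75 and 11 peaks in ATRXΔRBR. The part from 57.9 to 92.4 Mb had 0.449 (0.10 to 1.00), 0.719 (0.505 to 0.952) and 0.984 (0.943 to 1.03), with 33 and 4 ATRX peaks in ATRXΔRBR, so the ATRX value depends on the replicate. The part beyond 92.4 Mb, where expression was lower, had 0.830, 0.815 and 0.689. The ATRX ratio of that last part ran from 0.547 to 1.15 over the single lists, with 62 peaks in ATRXΔRBR replicate 1 and 88 in replicate 2, so its direction depends on the replicate. Peak lists hold no read density, so the number of CUT&RUN reads along the chromosome was not measured. The number of copies of chromosome 6 or its parts in each line was not measured either, and no expression ratio or peak share here is corrected for it.

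Single genes were tested over all genes with the quasi-likelihood test of edgeR, adjusted by Benjamini-Hochberg. In ATRXΔRBR 100 of 821 chromosome 6 genes passed an adjusted p of 0.05, 29 higher and 71 lower, where 6.88% of all 16287 genes passed (2.79% higher and 4.08% lower). In ATRX KD 343 of 856 passed, 136 higher and 207 lower, where 33.1% of all 16748 passed (15.2% higher and 17.8% lower). Of the genes with a mean of at least 1 CPM, in ATRXΔRBR 42 fell and 4 rose in the last part, and 18 rose and 12 fell in the first. In ATRX KD 135 fell and 9 rose in the last part.

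Some of the genes that rose in ATRXΔRBR lie in windows where H3K27me3 peaks were lost, and others do not. Peak counts of windows are not scaled to the length of the lists. The H3K27me3 lists held 35973 and 38773 peaks in WT and 38631 and 33086 in ATRXΔRBR, but only 7211 and 6305 in ATRX KD. The window from 52 to 53 Mb with Hoxa10 had 14 and 17 H3K27me3 peaks in WT and 23 and 19 in ATRXΔRBR. Aqp1, a water channel (chr6, 55336432 to 55348555, plus strand), had 124 and 152 CPM in WT, compared with 404 and 447 in ATRXΔRBR, then 25.1 and 26.5 in ATRX KD. The genotypes did not overlap, and the log2 fold change was 1.61 ± 0.18 (SE, adjusted p = 0.0020, edgeR) in ATRXΔRBR and -2.47 ± 0.15 (adjusted p = 0.00014) in ATRX KD. The 1 Mb window that holds it, from 55 to 56 Mb, had 55 and 64 H3K27me3 peaks in the WT libraries, 0 and 0 in those of ATRXΔRBR, and 4 and 5 in those of ATRX KD. Its loss of share was the largest of these windows in ATRXΔRBR. Aqp1 itself had no peak of any target within 2 kb of its start in any list. Its neighbour Gars, which encodes glycyl-tRNA synthetase, had 351 and 315 CPM in WT, against 697 and 680 in ATRXΔRBR, with 326 and 299 in ATRX KD.

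Podxl, a sialomucin of the cell surface, lies in the window of the next largest loss in ATRXΔRBR, from 31 to 32 Mb. It had 3.44 and 4.05 CPM in WT, compared with 15.0 and 11.6 in ATRXΔRBR, then 0.00 and 0.187 in ATRX KD, with log2 fold changes of 1.80 ± 0.26 (adjusted p = 0.0062, edgeR) and -4.83 ± 0.64 (adjusted p = 0.0021). H3K27me3 peaks in the window went from 54 and 49 in WT to 10 and 4 in ATRXΔRBR, and the much shorter ATRX KD lists had 7 and 8. Over the bin at 30 to 35 Mb, which holds Podxl, the ratio of H3K27me3 shares to WT was 0.397 in ATRXΔRBR and 1.11 in ATRX KD. EZH2 and H3K27me3 peaks lay at the Podxl start in all 6 lists of each. The height and width of these peaks were not compared between the genotypes.

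Ccnd2, which encodes cyclin D2, rose in ATRXΔRBR although it lies in the last part. It had 4.64 and 3.22 CPM in the WT libraries, 27.5 and 26.2 in those of ATRXΔRBR, and 0.00 and 0.0467 in those of ATRX KD, where 0 and 1 counts remained. The log2 fold changes were 2.75 ± 0.24 (adjusted p = 0.00081, edgeR) and -6.62 ± 0.69 (adjusted p = 0.00086). Its window from 127 to 128 Mb had 66 and 71 H3K27me3 peaks in WT, against 27 and 25 in ATRXΔRBR, with 1 and 1 in ATRX KD. H3K27me3 peaks lay at its start in both WT and both ATRXΔRBR lists and in neither ATRX KD list. Over chromosome 6, 89.0% and 90.9% of the WT H3K27me3 peaks had no counterpart in ATRX KD.

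**Figure D4:**
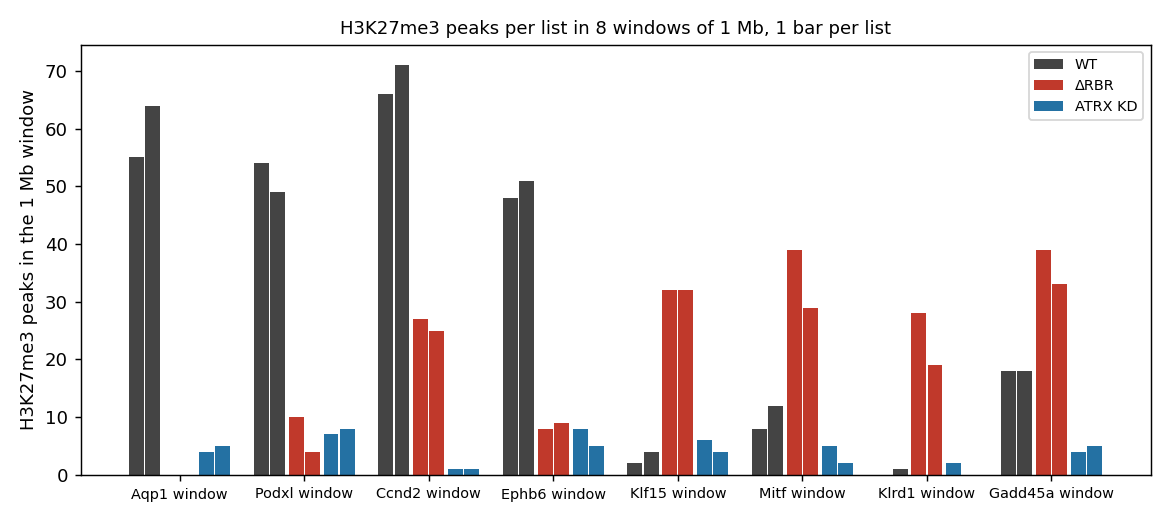
H3K27me3 peaks in each of the 6 lists for 8 windows of 1 Mb on chromosome 6, named after a gene in each, with 1 bar per list. Counts are not scaled to the length of the lists, and the ATRX KD lists are much shorter. The windows are the 4 with the largest loss and the 4 with the largest gain of peak share in ATRXΔRBR, and the Aqp1 window falls from 55 and 64 peaks to 0 in both ATRXΔRBR lists.

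Gains of H3K27me3 in ATRXΔRBR lay in other windows. From 90 to 91 Mb, with the end of a vomeronasal receptor cluster and Klf15, the peaks went from 2 and 4 in WT to 32 and 32. They numbered 6 and 4 in the much shorter ATRX KD lists, which is also a higher share of the list than in WT. Over the bin at 90 to 95 Mb the ratio of H3K27me3 shares to WT was 1.54 in ATRXΔRBR and 2.13 in ATRX KD. From 129 to 130 Mb, with natural killer cell receptor and lectin genes such as Klrd1 and Clec12a, they went from 0 and 1 to 28 and 19. From 98 to 99 Mb, with Mitf and part of Foxp1, they went from 8 and 12 to 39 and 29. None of these windows had a matching gain of EZH2 peaks in both lists: at 129 to 130 Mb EZH2 peaks numbered 3 and 1 in WT and 5 and 0 in ATRXΔRBR.

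Genes near silence in ATRXΔRBR came from several places on the chromosome. Bicd1, an adaptor of the dynein motor near the end of the chromosome (149408886 to 149563329, plus strand), had 10.2 and 16.5 CPM in WT, 0 counts in both ATRXΔRBR libraries and 8.03 and 8.23 CPM in ATRX KD. Against a floor of 3 counts per library it was at least 50.2-fold lower in ATRXΔRBR. Pparg, the nuclear receptor that drives fat cell differentiation, had 3.07 and 1.98 CPM in WT, 0 counts in ATRXΔRBR and 0.558 and 1.03 CPM in ATRX KD, which is at least 9.46-fold lower in ATRXΔRBR. Of these genes, neither had an EZH2, H3K27me3 or ATRX peak at its start in any list. Tgfa, a ligand of the EGF receptor, had 3.89 and 3.72 CPM in WT, compared with 0.106 and 0.00 in ATRXΔRBR, then 17.1 and 19.7 in ATRX KD, so it moved in opposite directions, with log2 fold changes of -6.17 ± 0.73 (adjusted p = 0.0025, edgeR) and 2.23 ± 0.20 (adjusted p = 0.00053). Krba1 moved like it, with 2.54 and 3.88, 0.106 and 0.00, and 13.4 and 11.1 CPM in the same order of genotypes.

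The promoters of 4 genes, chosen after their values were seen, are given for the bases around the start of transcription (RefSeq, GRCm38.p6, 250 bases before to 50 after the start, CG dinucleotides in capitals). Hoxa10 and Tgfa carried EZH2 and H3K27me3 peaks in WT, while Pparg and Bicd1 carried none.
Hoxa10, minus strand, chr6:52240805-52241104: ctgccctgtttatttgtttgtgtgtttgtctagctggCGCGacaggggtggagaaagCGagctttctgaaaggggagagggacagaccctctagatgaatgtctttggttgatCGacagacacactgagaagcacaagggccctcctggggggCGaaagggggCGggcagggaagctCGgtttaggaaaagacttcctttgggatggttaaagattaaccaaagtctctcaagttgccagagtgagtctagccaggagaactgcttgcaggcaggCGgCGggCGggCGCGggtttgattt
Tgfa, plus strand, chr6:86194972-86195271: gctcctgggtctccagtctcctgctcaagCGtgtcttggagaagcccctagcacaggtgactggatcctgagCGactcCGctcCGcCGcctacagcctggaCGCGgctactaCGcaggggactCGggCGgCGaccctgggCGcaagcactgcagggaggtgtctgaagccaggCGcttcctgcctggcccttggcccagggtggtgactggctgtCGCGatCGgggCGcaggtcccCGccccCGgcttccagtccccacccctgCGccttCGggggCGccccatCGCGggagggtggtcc
Pparg, plus strand, chr6:115360894-115361193: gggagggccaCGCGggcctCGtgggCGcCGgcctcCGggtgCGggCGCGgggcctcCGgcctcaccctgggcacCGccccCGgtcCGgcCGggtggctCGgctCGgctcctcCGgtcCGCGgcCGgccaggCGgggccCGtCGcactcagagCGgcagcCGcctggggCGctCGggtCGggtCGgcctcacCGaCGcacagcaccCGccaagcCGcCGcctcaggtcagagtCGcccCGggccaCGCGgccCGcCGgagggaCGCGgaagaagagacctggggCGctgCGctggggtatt
Bicd1, plus strand, chr6:149408734-149409033: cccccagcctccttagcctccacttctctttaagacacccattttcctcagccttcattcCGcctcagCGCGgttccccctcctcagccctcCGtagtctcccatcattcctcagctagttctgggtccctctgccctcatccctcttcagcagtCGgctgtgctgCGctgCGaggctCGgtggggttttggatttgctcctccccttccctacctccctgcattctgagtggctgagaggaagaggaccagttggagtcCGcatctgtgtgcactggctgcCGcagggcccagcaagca
They held 12, 24, 44 and 10 CG dinucleotides. The median of the 1865 chromosome 6 promoters in the table was 6, and 98.4% of them held no more than the Pparg promoter, against 62.5% for Bicd1. The dinucleotide CG reads the same on both strands.

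The HoxA cluster did not move as a block. Of 14 listed members 10 were tested and 4 had 0 counts in all libraries (Hoxa11, Hoxa13, Evx1 and Hottip). In ATRXΔRBR 2 rose and 0 fell (2.79% and 4.08% of all genes), with a median log2 fold change of 0.42, against -0.09 over all chromosome 6 genes tested and -0.02 over all genes tested. In ATRX KD 1 rose and 2 fell (15.2% and 17.8%), with a median of -0.20, against -0.10 and -0.02. Hoxa10 had 2.39 and 1.57 CPM in WT, 4.77 and 7.26 in ATRXΔRBR and 0 counts in both ATRX KD libraries, at least 8.35-fold lower there against a floor of 3 counts per library. Its log2 fold change in ATRXΔRBR was 1.59 ± 0.37 (adjusted p = 0.043, edgeR). Without ATRXΔRBR replicate 2 its rise no longer passed the test (log2 fold change 1.24, adjusted p = 0.16, edgeR). Hoxa9 had 5.54 and 5.95 CPM in the WT libraries, 10.6 and 10.9 in those of ATRXΔRBR, and 0.112 and 0.00 in those of ATRX KD. Their neighbour Hoxa7 had 41.1 and 28 CPM in WT and 52.5 and 55.4 in ATRX KD, with a log2 fold change of 0.59 (adjusted p = 0.056, edgeR). Hoxa6 rose in ATRX KD (log2 fold change 1.39), and Hotairm1, a long noncoding RNA of the cluster, rose in ATRXΔRBR (1.35). H3K27me3 peaks lay at the Hoxa9 and Hoxa10 starts in all 4 WT and ATRXΔRBR lists and in neither ATRX KD list, where 89.0% and 90.9% of chromosome 6 WT peaks had no counterpart.

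Imprinted genes, most of them near the start of the chromosome, with others at Mest and at Herc3 and Nap1l5, were measured as a list of 15, of which 11 were tested. In ATRXΔRBR 1 rose and 4 fell (2.79% and 4.08% of all genes), with a median log2 fold change of 0.00, and in ATRX KD 5 rose and 2 fell (15.2% and 17.8%), with a median of 0.21. Ppp1r9a, a neuronal actin-binding protein, had 12 and 14 counts in WT and 0 in all 4 libraries of the other genotypes. EZH2 and H3K27me3 peaks at its start were found in both WT and both ATRX KD lists and in neither ATRXΔRBR list. Mest, an imprinted hydrolase, had 19.1 and 22.3 CPM in WT, against 18.7 and 18.5 in ATRXΔRBR, with 45.2 and 40.7 in ATRX KD, a rise there of 1.00 ± 0.15 on the log2 scale (adjusted p = 0.0033, edgeR). Peg10, a gene of retrotransposon origin, rose by 0.65 in ATRX KD and had a log2 fold change of 0.00 in ATRXΔRBR.

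Glycolysis and housekeeping genes, most of which lie beyond 104.0 Mb, were tested as a list of 9. In ATRXΔRBR 3 fell and 0 rose (4.08% and 2.79% of all genes), with a median of -0.69, and in ATRX KD 7 fell and 0 rose (17.8% and 15.2%), with a median of -0.83. Ldhb, a subunit of lactate dehydrogenase, had 57 and 48.4 CPM in WT, compared with 7.42 and 9.92 in ATRXΔRBR, then 22.4 and 22.9 in ATRX KD, and fell in both. Tpi1, the triosephosphate isomerase, had 453 and 388, 198 and 256, and 253 and 238 CPM in the same order, and fell in both. Gapdh had only 166 and 202 counts in WT, and it, Rpl32, Ybx3 and Cnbp have near-identical copies in the genome between which reads can be split, so their levels are uncertain. Without these genes, a tally added after the values were seen, 3 of 5 fell in each comparison, with medians of -0.90 in ATRXΔRBR and -0.56 in ATRX KD.

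Cell cycle and replication genes were also grouped toward the end of the chromosome. Of 8 tested, 1 rose and 0 fell in ATRXΔRBR (2.79% and 4.08% of all genes), and 1 rose and 7 fell in ATRX KD (15.2% and 17.8%), with medians of -0.38 and -0.95, against -0.09 and -0.10 over all chromosome 6 genes. Those that fell in ATRX KD included Cdca3, a cell division gene, with 174 and 144 CPM in WT and 75.2 and 76.6 in ATRX KD. Mcm2, a subunit of the replicative helicase that lies before the second point of ATRX KD, rose by 0.37.

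Of 16 extracellular matrix and adhesion genes, 15 were tested, and 1 rose and 1 fell in ATRXΔRBR (2.79% and 4.08% of all genes) while 3 rose and 7 fell in ATRX KD (15.2% and 17.8%), with median log2 fold changes of 0.10 and -0.36. Emp1, an epithelial membrane protein, had 415 and 521 CPM in the WT libraries, 349 and 315 in those of ATRXΔRBR, and 153 and 149 in those of ATRX KD, a log2 fold change there of -1.68 ± 0.14 (adjusted p = 0.00037, edgeR). Adamts9, a secreted metalloprotease, fell in both, from 6.36 and 7.68 CPM to 2.65 and 1.94 and to 0.446 and 0.234. Col1a2, a chain of type I collagen near the start of the chromosome, had 5938 and 4231 CPM in WT and did not pass in either comparison.

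Signalling genes and transcription factors were listed as 25, with 20 tested in ATRXΔRBR, where 1 rose and 3 fell (2.79% and 4.08% of all genes), and 22 in ATRX KD, where 7 rose and 5 fell (15.2% and 17.8%), with medians of -0.22 and 0.11. Ret, a receptor tyrosine kinase, had 7.71 and 7.85 CPM in WT, against 6.68 and 7.76 in ATRXΔRBR, with 116 and 125 in ATRX KD. This rise of 3.90 ± 0.14 (adjusted p = 3.2e-05, edgeR) came from a gene in the last part, where the median was below 0. EZH2 and H3K27me3 peaks lay at its start in all WT and ATRXΔRBR lists and in neither ATRX KD list, the same arrangement as at Hoxa10, whose RNA was lost. Most WT peaks on chromosome 6 also lacked an ATRX KD counterpart, 80.0% and 69.4% for EZH2 and 89.0% and 90.9% for H3K27me3. Cxcl12, a chemokine of stromal cells, fell to 38.5 and 38.0 CPM in ATRX KD from 110 and 137 in WT. Wnt5b, a secreted ligand, fell in ATRXΔRBR from 5.69 and 4.79 to 0.212 and 0.288 CPM.

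Of 16 chromatin regulators encoded on chromosome 6, 0 passed in ATRXΔRBR, where 6.88% of all genes passed, so few would be looked for among 16. In ATRX KD 2 rose and 2 fell, where 33.1% of all genes passed. Ezh2 itself had 143 and 135 CPM in WT, 178 and 163 in ATRXΔRBR (adjusted p = 0.39, edgeR) and 189 and 183 in ATRX KD (log2 fold change 0.37, adjusted p = 0.043).

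**Figure D5:**
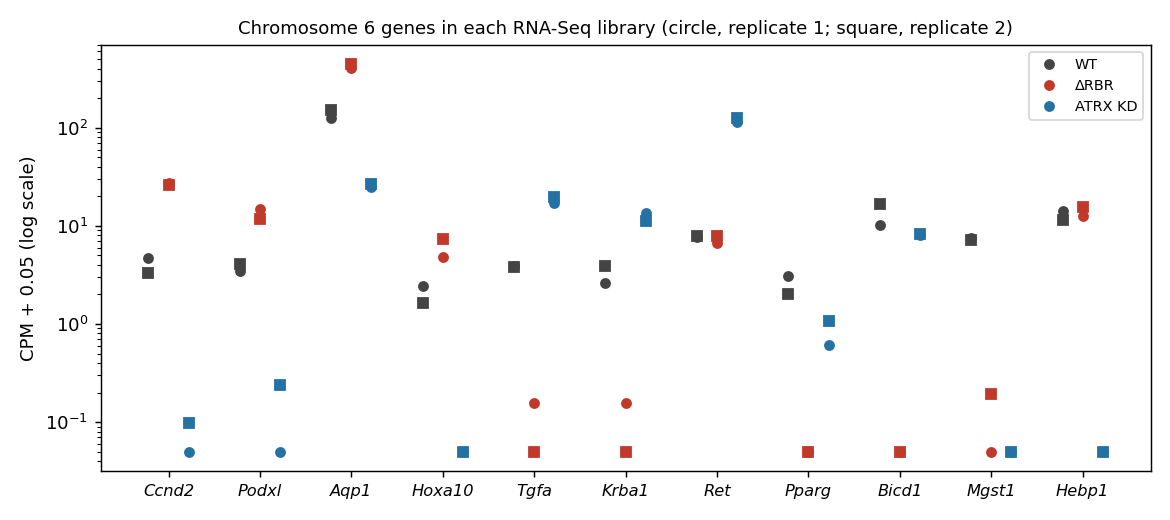
Level of 11 chromosome 6 genes in each RNA-Seq library, as CPM plus 0.05 on a log axis, 2 libraries per genotype. Ccnd2, Podxl, Aqp1 and Hoxa10 are highest in ATRXΔRBR and lowest in ATRX KD, Tgfa and Krba1 show the reverse, and Bicd1 and Pparg have 0 counts in ATRXΔRBR.

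Among the other genes with the largest rises in ATRXΔRBR was Itpr2, a calcium channel of the endoplasmic reticulum, with 31.9 and 30.3 CPM in WT and 115 and 76.8 in ATRXΔRBR. Sspo rose from 0 and 5 counts to 25 and 45, and the pseudogene Zfp862-ps rose by 1.58 on the log2 scale. Tspan11 and Tspan12, which encode tetraspanins, fell in ATRXΔRBR, the first from 47 and 32 counts to 0 in both libraries and the other from 43 and 56 counts to 1 in both. Tspan11 also had 0 counts in both ATRX KD libraries, and Tspan12 had 58 and 141 counts there.

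Among the largest rises in ATRX KD was Prrt4, with 0.299 and 0.330 CPM in WT and 5.35 and 5.66 in ATRX KD. EZH2 and H3K27me3 peaks lay at its start in all WT and ATRXΔRBR lists and in neither ATRX KD list, which most WT peaks of chromosome 6 also lacked. Dnah6, a dynein heavy chain of cilia, rose by 2.85 on the log2 scale and Fam13a by 2.94. Gng11, a G protein gamma subunit, went from 111 and 70 counts (WT) to 3 and 11 (ATRXΔRBR) and to 0 in both ATRX KD libraries, and Scrn1, a secernin, had 371 and 352 counts in WT against 4 and 2 in ATRX KD. Gng11 had H3K27me3 peaks at its start in WT and ATRXΔRBR and Scrn1 had none in any list.

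Mgst1, a microsomal glutathione transferase, was near 0 in both mutants, with 99 and 87 counts in WT, compared with 0 and 2 in ATRXΔRBR, then 0 and 0 in ATRX KD. Hebp1, a haem-binding protein, had 14.1 and 11.5 CPM in WT, 12.5 and 15.4 in ATRXΔRBR, and no counts in either ATRX KD library, where it was at least 53.95-fold lower. Herc3, a ubiquitin ligase, had 13.9 and 15.9 CPM in the WT libraries, 28.5 and 25.9 in those of ATRXΔRBR, and 66.3 and 63.7 in those of ATRX KD and rose in both.

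Single genes at the edges of the shifted bins did not all show a step. At the 25 Mb edge in ATRXΔRBR, Wasl outside and Pot1a inside had log2 fold changes of 0.69 and 0.75, neither past the test, and Suclg2 just inside the edge at 95 Mb had -0.38 (adjusted p = 0.35, edgeR). Lrig1, a regulator of growth factor receptors between the ATRXΔRBR point at 92.4 Mb and the first lower bin at 95 Mb, had 53.0 and 55.4 CPM in WT and 26.2 and 24.1 in ATRXΔRBR, a log2 fold change of -1.12 ± 0.17 (adjusted p = 0.0080, edgeR), against 41.2 and 47.9 in ATRX KD. Of the 4 chromosome 6 ATRX peaks found in both ATRXΔRBR lists and in neither WT list, the one of highest fold enrichment lies 2 bases from the start of Lrig1. Ppp4r2, the last well-expressed gene before the point of ATRX KD, had 61.7 and 52.9 CPM in WT and 75.9 and 68.5 in ATRX KD. Trnt1, the first such gene after it, had 52.5 and 61.3 in WT and 27.9 and 30.1 in ATRX KD (log2 fold change -1.02 ± 0.14, adjusted p = 0.0025, edgeR). At the very end, Resf1 had 150 and 159 CPM in WT, against 172 and 127 in ATRXΔRBR, with 176 and 175 in ATRX KD, and did not pass in either comparison.

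H3K27me3 was also counted over large receptor families in which most genes had almost no RNA. Of 338 receptor and immunoglobulin genes, 301 had 0 counts in all libraries and 11 were tested. The families and the neighbourhood given next were chosen after the peaks were seen. Of 51 vomeronasal Vmn1r genes, 23 and 22 had an H3K27me3 peak within 2 kb in the WT lists, 17 and 14 in the ATRXΔRBR lists and 6 and 6 in the shorter ATRX KD lists. Of 20 natural killer cell receptor Klr genes, 1 and 1 had a peak in WT, compared with 4 and 4 in ATRXΔRBR, then 1 and 1 in ATRX KD. Not all of these genes were silent, since 4 of the Vmn1r genes and 6 of the Klr genes had more than 10 counts over the libraries. The Cav1, Cav2, Met and Cftr neighbourhood, taken as 7 genes, had ATRX peaks at 6 and 5 of them in WT and at 0 and 0 in ATRXΔRBR.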

How the data were processed

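ATRX, EZH2 and H3K27me3 CUT&RUN and polyadenylated RNA-Seq were analysed in MEFs. CUT&RUN reads had been aligned by the authors with Bowtie2 (mm10, which is GRCm38), and MACS2 broad peaks were called per library. The deposited fold enrichment (a ratio to local background) and −log10 q-value of a peak come from MACS2, and the deposited score was not used. The deposited −log10 p-value was not used. The authors computed the deposited estimated counts, TPM and FPKM with RSEM after alignment with STAR. TPM entered only an alternative setting of the expression ratios and bins, and FPKM was not used. Libraries of the IgG control were not analysed here. The study's methods and its antibody list name different H3K27me3 antibodies.

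Peaks were placed by midpoint, and q-values of 0.01 or less were an alternative. Estimated counts were rounded, genes with more than 10 counts over 4 libraries were kept, and ATRXΔRBR and ATRX KD were each tested against WT in edgeR 4.0.16 (TMM, quasi-likelihood), with DESeq2 1.42.0 as an alternative. CPM used TMM over all 6 libraries, and log2 ratios a prior count of 2. Chromosome 6, the gene lists and the tests were chosen with earlier results of these data known. Genes named are, for each comparison, the 8 of largest rise and fall among called genes of at least 1 CPM whose libraries do not overlap, genes of at least 20 CPM at the edges of shifted bins, and members of the lists. Some genes that this rule names are not reported here. The 1 Mb windows were ranked after the peaks were seen. Peaks and figures used Python and matplotlib. The tests were tried on simulated data. With 2 libraries a group, errors are SDs over few values. Same-numbered WT and ATRXΔRBR libraries deviated in opposite directions (r = -0.54 over genes), and the main test did not pair libraries by number.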

Additional observations from a re-analysis of the deposited data

How the results depend on the processing

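The values moved under some settings. In ATRXΔRBR, 162 chromosome 6 genes were called with no filter on low counts and 53 with at least 10 counts in every library, against 100. With no filter on mean CPM both medians of the expression ratio were 0, and without subtraction of the autosomal median that of ATRX KD was -0.051. Higher expression bins in ATRXΔRBR numbered 11 in bins of 2.5 Mb and 12 at a size of 0.1, and in ATRX KD 6 at a size of 0.3. With q-values of 0.01 or less, the share ratio was 1.09 for EZH2 in ATRX KD and 0.485 for H3K27me3 in ATRXΔRBR. By covered base pairs these ratios were 1.09 and 0.563, and outside 2 kb of any TSS the first was 1.04. With the strict q-value, bins with a lower share in ATRXΔRBR numbered 2 for ATRX and 13 for EZH2, and 0 had a higher H3K27me3 share. At 1.5-fold, EZH2 had 13 lower bins in ATRXΔRBR and 3 higher in ATRX KD, and H3K27me3 had 2 higher in ATRXΔRBR and 7 higher in ATRX KD. In bins starting 2.5 Mb later, H3K27me3 had 2 higher bins in ATRXΔRBR and 7 lower in ATRX KD. When 50% of the WT peak had to overlap, peaks without a counterpart were 85.9% (EZH2, ATRX KD), 80.6% (H3K27me3, ATRXΔRBR) and 97.8% (H3K27me3, ATRX KD), and the last was 94.6% with the strict q-value. The causes were not tested beyond the settings' own construction. The other 139 alternative values of these results lay within the limits set for a like value. Those limits did not require the same direction, so a share ratio of ATRX KD close to 1 could cross 1. Called genes ranged from 80 to 119 in ATRXΔRBR and from 243 to 486 in ATRX KD when 1 library was left out. DESeq2 called 101 and 301.

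A fit with the replicate number as a block called 82 genes in ATRXΔRBR and 350 in ATRX KD. Pairing WT replicate 1 with ATRXΔRBR replicate 2, added after the data were seen, called 366. The labels do not say whether any of these libraries share a culture, so neither fit is preferred. Of the 314 alternative values of single genes, 2 no longer passed, among them Hoxa10 without ATRXΔRBR replicate 2.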
